A study of Mus musculus with 4 samples.

Results

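Fibroblasts of mouse skin carrying the matrix genes Postn and Cilp were described across 4 single-cell RNA libraries. A barcode counted as a member when it held at least 300 genes, at most 15% mitochondrial UMIs (unique molecular identifiers, 1 per captured transcript), no UMI of the leukocyte gene Ptprc, at least 1 of Pdgfra and at least 20 of Col1a1, Col1a2 and Col3a1 together. It also needed at least 5 UMIs of Postn and Cilp together, and had to fall below 4 upper limits that set other dermal fibroblasts aside (Angptl7 below 10, Cxcl5 and Saa3 below 5, Cxcl13 and Inmt below 3, Cdh4 and Ntng1 below 3). Of 28847 barcodes, 1101 were members: 630 in untreated skin, 197 at oxazolone day 10, 89 at oxazolone day 16 and 185 with MC903. Members were chosen on measured values, so their Postn, Cilp and collagen levels, and every contrast with cells the rule set aside, are given as a description.

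The study profiled skin of female C57BL/6J mice of 6-8 weeks in 2 models of type 2 dermatitis. MC903 mice received 1 nmol calcipotriol, a vitamin D analogue, in 100 µL ethanol on ear and neck skin daily, and skin was taken at day 9. Oxazolone mice were sensitised with 100 µL of the hapten at 3% and, from 7 days later, challenged with 1.0% every other day, with harvest at day 10 or day 16. Control mice were untreated, and no vehicle-treated library is analysed here. Each library pooled neck and ear skin of 3 mice after enzymatic digestion and removal of dead cells, so there is 1 library per group and the mice in it cannot be separated. No difference between groups has a replicate check, and intervals below cover counting error only. In each series of 4 values the order is untreated, oxazolone day 10, oxazolone day 16, MC903.

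Postn encodes periostin, a secreted matricellular protein that binds collagen and integrins, promotes collagen crosslinking, and is known in skin as a product of fibroblasts exposed to TGF-beta or to IL-4 and IL-13. Cilp encodes cartilage intermediate layer protein, a matrix protein known to bind TGF-beta1 and IGF-1 and to limit their signalling. Dermal fibroblasts make the collagen network and also serve as sources of chemokines, complement and growth factor binding proteins. In the GENCODE M21 annotation of GRCm38, Postn (ENSMUSG00000027750) lies on the plus strand of chromosome 3 from 54361109 to 54391037, and Cilp (ENSMUSG00000042254) on the plus strand of chromosome 9 from 65265180 to 65280605.

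The label was checked against fibroblast and other markers. Postn, Cilp and Col1a1 were present in every library, and 7 general fibroblast markers that the rule did not use (Dcn, Lum, Dpt, Col6a1, Col5a1, Mfap5, Pdgfrb) summed to 14576, 8873, 8393 and 11228 CPM (counts scaled to 1000000 UMIs of the cells summed). Among all other barcodes the same sum was 5072, 1332, 1200 and 5849 CPM. Members therefore carried a fibroblast profile in each library. Some also held other profiles: 70, 20, 11 and 34 members (11.1%, 10.2%, 12.4% and 18.4%) had at least 10 UMIs from any of the lists of leukocyte, macrophage, keratinocyte, endothelial, mural, Schwann cell, melanocyte, cartilage, muscle, fat and erythroid markers. The neutrophil list was not among these; 37, 10, 51 and 61 members reached 10 UMIs of it. Of the 70 untreated members with other markers, 42 had at least 10 UMIs of the keratinocyte list, against 3, 0 and 6 members in the treated libraries. The 6 keratinocyte markers summed to 425, 164, 25.4 and 80.1 CPM in members, and a list count between libraries, or against gated fibroblasts with fewer Postn and Cilp UMIs, is also given without the cells that held other markers where it changed. Leukocyte markers summed to 6.04, 19, 30.9 and 3.26 CPM in members against 733, 1954, 2711 and 779 CPM in other barcodes. The neutrophil list summed to 184, 209, 555 and 289 CPM in members and to 140, 12320, 44978 and 6210 CPM in other barcodes. In untreated skin and with MC903 nearly all of it was Il1r2 (183 and 261 CPM). At oxazolone day 16 it was S100a8 (234 CPM) and S100a9 (273 CPM), transcripts abundant in neutrophils.

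Depth differed between libraries and moves with every comparison below. Library totals ran from 73054242 to 119717836 UMIs. Median UMIs per member were 13640, 22200, 34739 and 30843. In the file headers Cell Ranger is version 7.2.0 for untreated skin and the earlier oxazolone time, and 8.0.0 for day 16 and MC903, so each comparison across that divide mixes software version with treatment, and the effects cannot be told apart. Between 5 and 16 barcodes were shared by any pair of libraries, and 0 of them were members.

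Members were the larger part of the fibroblasts left after the upper limits (gated fibroblasts) in untreated skin and at oxazolone day 16, and the intervals of the other libraries included 50%. In untreated skin they were 60.9% of 1034 cells (exact 95% binomial interval 57.9% to 63.9%). At oxazolone day 10 the share was 51.2% of 385 cells (interval 46.1% to 56.3%) and at day 16 it was 59.3% of 150 (interval 51.0% to 67.3%). MC903 skin had 48.3% of 383 (interval 43.2% to 53.4%). Because the rule counts raw UMIs, deeper cells reach its Postn and Cilp limit more easily, and also exceed its upper limits more easily. With every gated cell thinned to 5000 UMIs and shallower cells left out (56, 15, 11 and 6 cells), the shares became 48.8%, 38.9%, 37.4% and 27.1%. Only the Postn and Cilp limit was applied to thinned counts. The other steps, with the upper limits, stayed at full depth. Untreated skin and oxazolone day 16 changed places under other settings: day 16 stood at 65.3% against 65.1% at a limit of 3 Postn and Cilp UMIs, at 60.6% against 59.8% without Scrublet doublet calls, at 69.2% against 60.9% with Cxcl5 and Saa3 cells kept, and at 70.3% against 69.4% without the cells that held other markers. The distance between untreated skin and MC903 was wider with the Postn and Cilp limit applied at 5000 UMIs. Since the gate itself kept its full depth, these shares do not fully remove the difference in depth. Of all fibroblasts that passed the steps before the upper limits, members were 33.3% of 1891, 30.4% of 649, 25.8% of 345 and 19.3% of 957. The limit on Cxcl5 and Saa3 removed 0, 167, 129 and 58 cells, and that on Cxcl13 and Inmt 95, 16, 37 and 382, so the denominators differ in kind between libraries. Cells close to the Postn and Cilp limit were few: 18, 11, 3 and 7 gated cells held exactly 5 UMIs and 19, 7, 4 and 9 held 4, against a median of 33, 48, 37 and 30 in members.

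**Figure D1:**
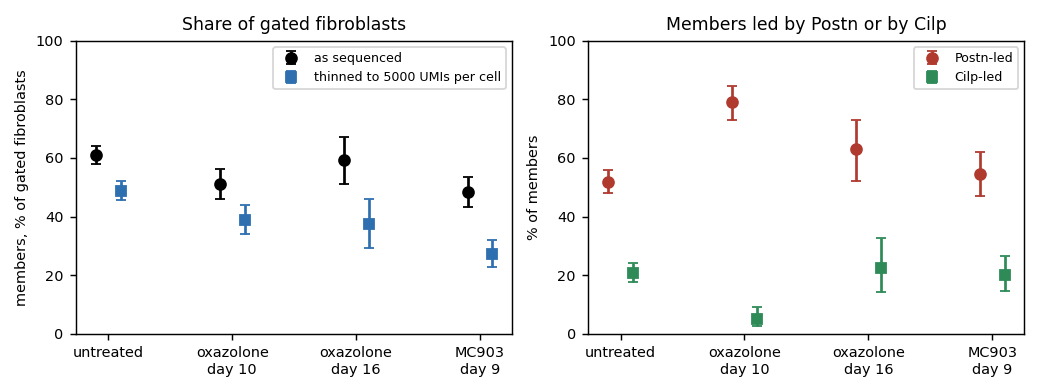
Left, members as a percentage of gated fibroblasts in each library, counted on all UMIs and after thinning each cell to 5000 UMIs, with exact 95% binomial intervals for counting error. Right, the percentage of members led by Postn (at least 80% of a cell's Postn and Cilp UMIs) or by Cilp (at most 20%); the untreated share of members is 60.9% on all UMIs and 48.8% after thinning, and Postn-led members are most frequent at oxazolone day 10.

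Postn and Cilp were carried by partly different members, and the balance lay furthest toward Postn at oxazolone day 10. Postn summed to 2899, 3262, 1722 and 1576 CPM and Cilp to 863, 269, 436 and 566 CPM. The median member held 18, 45, 16 and 18 Postn UMIs and 6, 0, 1 and 5 Cilp UMIs. Cells in which Postn made up at least 80% of both genes' UMIs were 51.9%, 79.2%, 62.9% and 54.6% of members. Cells with Postn at 20% or less were 20.6% (130 cells), 5.08% (10 cells), 22.5% (20 cells) and 20% (37 cells). The remainder, in which both genes contributed, were 27.5%, 15.7%, 14.6% and 25.4%. A few cells carried much of the Postn signal in the smaller libraries, since the 5 highest held 6.47%, 14.6%, 35.8% and 31.2% of it. Fewer such cells make the same 5 a larger fraction of their library, so these percentages are not comparable between libraries. Fibroblasts set aside for Cxcl5 and Saa3 were also rich in Postn, at 3194 CPM at oxazolone day 10 and 2317 CPM at day 16, with Cilp at 105 and 93.5 CPM. The Postn level of members is thus not that of all fibroblasts: over all cells before the upper limits it was 1527, 2351, 1718 and 759 CPM.

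**Figure D2:**
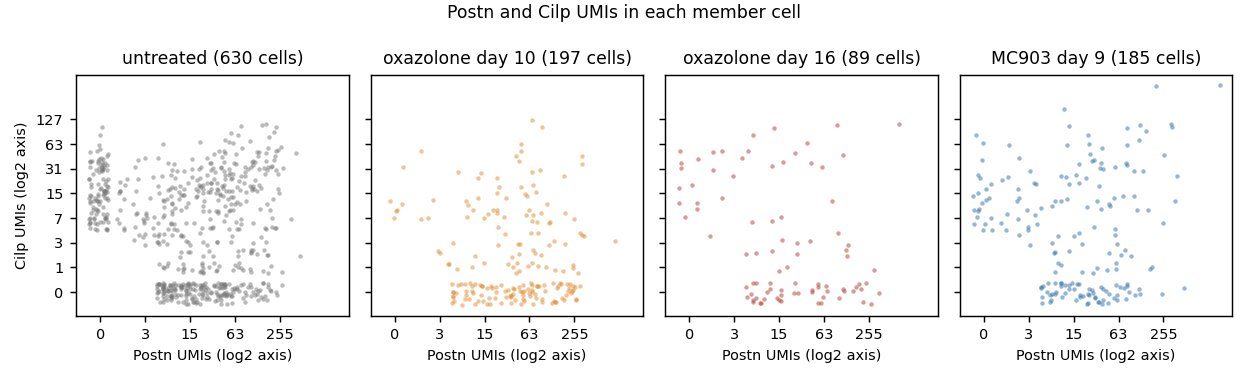
Postn UMIs (horizontal) and Cilp UMIs (vertical), both on log2 axes, in each member cell of the 4 libraries. At oxazolone day 10 the median member held 45 Postn and 0 Cilp UMIs, while in untreated skin it held 18 and 6.

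Beside Postn and Cilp, members held more transcripts of some other matrix genes than gated fibroblasts with fewer than 5 Postn and Cilp UMIs. Mfap4, a microfibril-associated glycoprotein, stood at 448, 432, 189 and 167 CPM in members and at 46.8, 57.6, 21.6 and 29.95 CPM in those cells. Tnc, the matricellular protein tenascin-C, stood at 422, 882, 409 and 749 against 60.4, 149, 38.2 and 184 CPM. Col12a1, a fibril-associated collagen, stood at 240, 792, 292 and 612 against 67.9, 104, 51.8 and 148 CPM. Lrrc15, a surface protein known from TGF-beta-driven myofibroblasts, Adam12, a metalloprotease of activated mesenchyme, Ltbp2, a microfibril protein, and Cthrc1, a secreted modulator of matrix deposition, were also at least 2-fold higher in 4 of 4 libraries. Across 9761 measured genes 48 were at least 2-fold higher in members in all 4 libraries (0.492%) and 244 were lower (2.5%). Of 16 elastic fibre genes 3 were higher (Mfap4 and Ltbp2 among them), and of 9 contractile genes 2 (Lrrc15 and Cthrc1), with 0 lower in either. Of 19 matricellular genes 2 were higher and 4 lower, of 18 collagens 1 and 1, of 16 collagen processing genes 2 and 0, and of 10 small leucine-rich proteoglycans 0 and 2. Without the cells that held other markers the higher and lower counts were 2 and 0 of 16 elastic fibre, 1 and 0 of 9 contractile, 1 and 2 of 19 matricellular, 1 and 0 of 18 collagen, 1 and 0 of 15 collagen processing and 0 and 0 of 10 proteoglycan genes.

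The lowest genes in members included genes of cartilage. Col9a1, a cartilage collagen, stood at 15.2, 16.4, 2.06 and 1.30 CPM in members against 348, 455, 235 and 43.2 CPM in the comparison cells, and Sox6, Snorc, Ucma and Fgfr3 lay the same way in every library. Of 9 measured tendon and cartilage genes 6 were lower in members in all 4 libraries, and 3 of 6 without the cells that held other markers. The comparison cells held other cells' markers more often: 38.9%, 49.5%, 45.9% and 27.3% of them had at least 10 UMIs of another cell type's list. With such cells left out of both sides, 12 genes were higher and 45 lower among 8537. Those 12 were Adam12, C1qtnf3, Col12a1, Dlk1, Ifit3, Lox, Lrrc15, Ltbp2, Mfap4, Nrg1, Syt13 and Tnc, of which Dlk1, Ifit3 and Syt13 are named after their values were seen. Mfap4 was then 484 against 80.1 CPM in untreated skin, a log2 ratio of 2.60, and 1.95, 2.03 and 2.44 in the treated libraries. Clu and Crispld1 stayed lower in all 4. Only 33 comparison cells were left at oxazolone day 16.

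**Figure D3:**
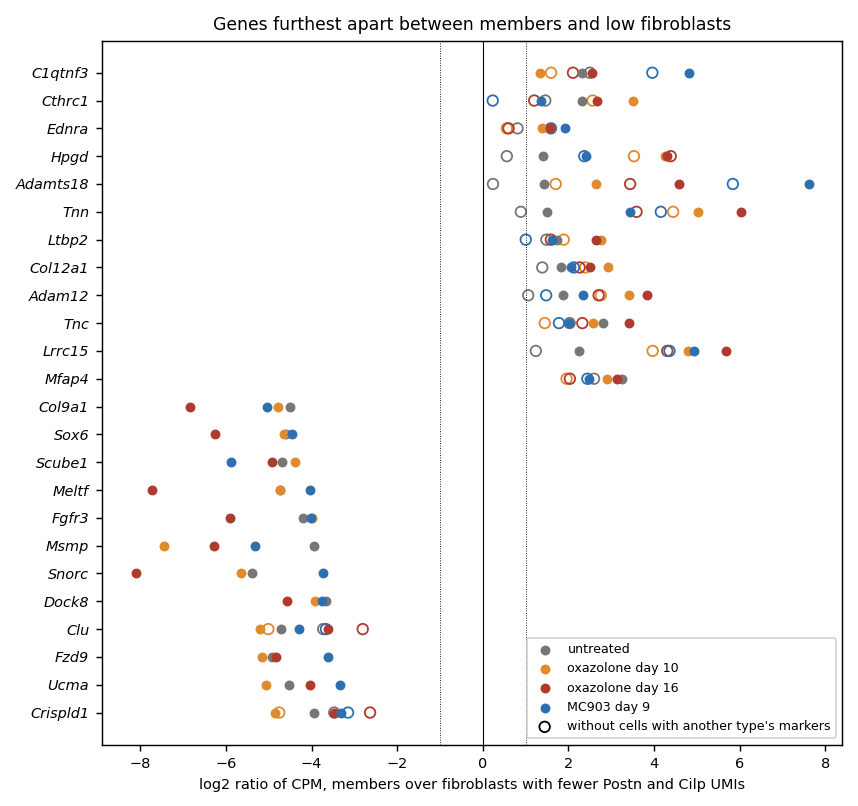
Log2 ratio of CPM in members over gated fibroblasts with fewer than 5 Postn and Cilp UMIs, for the 12 genes furthest up and the 12 furthest down, 1 filled point per library. Open points, where the gene was still measured, leave out cells with another cell type's markers; Mfap4, Tnc, Lrrc15, Col12a1 and Adam12 lie above 1 in both, and the cartilage genes at the bottom have no open points.

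Members were also compared with the fibroblast groups that the upper limits set aside. A gene counted when it differed 2-fold the same way in both libraries compared. The cells set aside pass the other 3 upper limits and were taken whatever their Postn and Cilp count. Cells above the Cxcl5 and Saa3 limit were compared at oxazolone days 10 and 16, where 4.06% of genes were higher in members in both and 1.73% lower. Of 15 chemokine, cytokine and alarmin genes 7 were lower in members, and of 9 contractile genes 6, of 13 adventitial genes 7 and of 10 small leucine-rich proteoglycans 5 were higher. Csf3, the granulocyte growth factor, stood at 0.431 and 2.06 CPM in members against 22.0 and 57.6 CPM. Cells above the Cxcl13 and Inmt limit were compared in untreated skin and MC903 (2.65% higher, 0.822% lower). Members there were higher in 5 of 9 contractile, 6 of 18 collagen and 4 of 9 papillary genes, with Acta2 at 44.7 and 96.5 CPM against 4.59 and 2.87 CPM. Cells above the Cdh4 and Ntng1 limit were compared in untreated skin and oxazolone day 10 (1.24% higher, 0.739% lower). Members were higher in 5 of 18 matricellular and 5 of 12 reticular genes and lower in 3 of 11 papillary genes. Il33, an alarmin cytokine, stood at 16.8 and 108 CPM in members against 2.17 and 2.67 CPM.

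At oxazolone day 10 members held more contractile and collagen transcripts than in untreated skin, and fewer adventitial and immediate early transcripts. A gene with at least 30 UMIs in a pair of libraries counts as measured and is called at a 2-fold ratio; of 12723 genes 5.12% were called higher and 5.69% lower, with a median log2 ratio of -0.07. Of 10 measured contractile and myofibroblast genes 9 were higher and 0 lower, with a median log2 ratio of 1.53. Acta2, smooth muscle actin, stood at 44.7, 312, 123 and 96.5 CPM, a log2 ratio of 2.80 at day 10 over untreated skin (2.65 to 2.96). Its signal was uneven: 19.1% of members at day 10 held a UMI after thinning to 5000, against 7.50% in untreated skin (7.73% and 6.95% of other barcodes), and the 5 highest cells held 55.6% and 67.6% of the UMIs. Lrrc15 was spread more widely, at 61.0, 283, 126 and 52.4 CPM and seen in 14.2%, 39.9%, 23.8% and 4.35% of thinned members. Other barcodes held Lrrc15 in under 1% of cells (0.787%, 0.836%, 0.331% and 0.259%). In all shares of cells, other barcodes are those that failed a step before the upper limits, unlike in the CPM sums. Fibroblasts set aside by an upper limit, or with fewer Postn and Cilp UMIs, are not among them. These shares therefore do not compare members with other fibroblasts. Tpm1, a tropomyosin of actin filaments, was seen in 31.3%, 56.9%, 46.4% and 22.8% of thinned members and in 31.6%, 22.3%, 8.33% and 22.6% of other barcodes, so members stood apart from them in the oxazolone libraries. Members with at least 10 UMIs of Acta2 and Tagln together were 9, 31, 7 and 7 (1.43%, 15.7%, 7.87% and 3.78%). Markers of mural cells, which also make Acta2 and Tagln, summed to 72.8, 49.8, 117 and 53.1 CPM in members. Without the cells that held other markers Acta2 was 21.2, 167, 68.8 and 56.2 CPM, and the contractile count stayed at 9 of 10.

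Among the matrix lists at oxazolone day 10, all but the small leucine-rich proteoglycans had more higher than lower calls, with the most higher calls in collagens and matricellular genes. Of 18 collagens 6 were at least 2-fold higher and 0 lower, or 4 without the cells with other markers. Col12a1 was seen in 33.6%, 61.7%, 53.6% and 52.2% of thinned members against 11.2%, 8.01%, 3.30% and 11.6% of other barcodes. Col11a1, a minor fibrillar collagen that sets fibril diameter, stood at 91.1, 437, 173 and 88.4 CPM, a log2 ratio of 2.26 (2.15 to 2.38). Col7a1, the anchoring fibril collagen, stood at 24.5, 68.1, 15.4 and 38.6 CPM. Of 18 matricellular genes 6 were higher and 1 lower, of 16 collagen processing genes 2 and 1, and of 10 small leucine-rich proteoglycans 0 and 2. Of 16 elastic fibre genes 3 were higher and 1 lower, or 2 and 2 without the cells with other markers. Of 17 proteases and inhibitors 4 were higher and 1 lower, or 5 and 2 without those cells. Tnn, tenascin-W, stood at 21.5, 87.1, 40.5 and 46.1 CPM, and Ccn4, a Wnt-induced matricellular protein, at 16.3, 57.6, 35.4 and 14.8 CPM. Among elastic fibre genes Fbn2, a fibrillin of developing tissue, was seen in 19.6%, 48.9%, 46.4% and 27.7% of thinned members against 8.30%, 6.32%, 2.40% and 9.54% of other barcodes. Ltbp4 was seen in 60.8%, 28.7%, 46.4% and 42.4% against 27.2%, 11.6%, 3.88% and 30.4%. Decorin (Dcn), the chief small proteoglycan of dermal collagen, was lower, at 9683, 4598, 4372 and 8304 CPM. Timp1, an inhibitor of matrix metalloproteases, stood at 31.7, 484, 674 and 213 CPM and had a log2 ratio of 3.93 at day 10 (3.76 to 4.11). It was seen in 12.1%, 50%, 65.5% and 33.7% of thinned members against 2.59%, 9.55%, 18.1% and 8.46% of other barcodes.

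Adventitial genes were the group furthest down beside the immediate early genes. Of 14 measured adventitial and fascia genes 7 were lower at oxazolone day 10 and 0 higher, with 8 lower without the cells that held other markers. Dpp4, a surface peptidase of fascial progenitors, stood at 82.4, 20.05, 93.7 and 19.4 CPM. Pcsk6, a proprotein convertase, stood at 103, 22.6, 81.3 and 28.8 CPM. Both were low at day 10 and with MC903, and near the untreated level at day 16. Pcolce2, an enhancer of procollagen processing, was seen in 62.2%, 20.7%, 47.6% and 48.4% of thinned members against 15.5%, 5.54%, 2.39% and 20.1% of other barcodes. Tnxb, tenascin-X, was seen in 73.9%, 35.6%, 63.1% and 60.3% against 7.83%, 1.51%, 2.09% and 12.7%. Of 11 immediate early and stress genes, which also respond to tissue digestion, 9 were lower. Atf3 stood at 191, 20.3, 47.0 and 64.5 CPM and Fos at 965, 243, 428 and 935 CPM. Their part in the other differences was not tested.

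Signals to other cells at oxazolone day 10 were mixed. Of 15 chemokine, cytokine and alarmin genes 5 were higher and 3 lower. Cxcl14, a chemokine of steady-state skin, stood at 75.2, 452, 674 and 483 CPM and was seen in 15.7%, 36.2%, 40.5% and 29.9% of thinned members against 11.3%, 15.96%, 5.10% and 10.0% of other barcodes. Il33 stood at 16.8, 108, 90.3 and 26.2 CPM, with 4.08%, 17.6%, 27.4% and 5.43% of thinned members holding a UMI. In other barcodes that share was 3.53%, 0.736%, 1.54% and 0.777%. Cxcl9, an interferon-induced chemokine, stood at 3.65, 87.3, 117 and 4.40 CPM, but the 5 highest members held 85.7% and 97.9% of it at days 10 and 16. Il11, a fibrogenic cytokine, stood at 1.15, 19.4, 3.78 and 2.28 CPM, with 95.6% of the day 10 UMIs in 5 cells. Il1rl1, the IL-33 receptor, stood at 3.44, 119, 45.6 and 2.12 CPM, with 90.9% in 5 cells at day 10. The signal of these 3 genes came from a few cells. Of the 652 genes called higher at day 10, 316 had at least 50% of their UMIs in 5 members. Smpd3, a neutral sphingomyelinase, was among the lowest at 119, 4.74, 22.0 and 2.44 CPM.

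Of 12 IGF axis genes 2 were higher and 1 lower at oxazolone day 10, beside 5.12% and 5.69% of all measured genes. Igfbp4, which binds IGF and is cut by PAPP-A, stood at 460, 1762, 1470 and 363 CPM and was seen in 49.6%, 82.4%, 79.8% and 29.3% of thinned members against 22.8%, 15.5%, 7.04% and 16.5% of other barcodes. Apoe, the apolipoprotein of lipid-handling dermal cells, stood at 1624, 415, 156 and 1032 CPM. It was seen in 70.1%, 51.1%, 32.1% and 71.2% of thinned members and in 74.7%, 62.3%, 24.4% and 55.4% of other barcodes, so members lay below the other barcodes in the first 2 libraries. Crabp1, a retinoic acid binding protein of papillary fibroblasts, stood at 9.27, 110, 61.1 and 1.63 CPM.

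At oxazolone day 16 the chemokine, complement and collagen processing lists were among those with more higher than lower calls over untreated skin. Others were the matricellular list (6 higher and 2 lower of 19, or 8 and 2 without the cells that held other markers), elastic fibre (3 and 1 of 16), papillary (3 and 1 of 10), contractile and cell cycle lists. In 5 of the 6 higher matricellular genes at least 50% of the UMIs lay in 5 members. Most of the chemokine calls rested on few cells. Of 12407 measured genes 5.41% were higher and 11.1% lower, with a median log2 ratio of -0.17, so lower calls outnumbered higher ones. Of 15 chemokine, cytokine and alarmin genes 10 were higher and 1 lower, with a median log2 ratio of 1.53. In 8 of those 10 at least 50% of the UMIs lay in 5 of the 89 members. Ccl7, a monocyte chemoattractant, stood at 84.8, 21.8, 188 and 38.4 CPM, above untreated skin at day 16 and below it at day 10. It was seen in 13.9%, 6.38%, 32.1% and 9.24% of thinned members, and in 2.34%, 3.43%, 23.2% and 5.35% of other barcodes. Ccl8 stood at 26.1, 146, 134 and 12.4 CPM, and Ccl2 at 49.5, 47.9, 165 and 42.6 CPM. Cxcl2, a neutrophil chemoattractant, stood at 2.92, 31.9, 219 and 16.3 CPM. At day 16 it was seen in 59.5% of thinned members but 91.7% of other barcodes, and whether members made it was not tested. S100a9 (56.0% against 88.4%), Slpi (17.9% against 64.6%), Arg1 (4.76% against 33.2%) and Tgm2 (13.1% against 50.8%) were likewise seen in fewer members than other barcodes. Chil1, a chitinase-like protein, stood at 12, 41.6, 320 and 79.6 CPM, with 93.1% of it in 5 members at day 16, and was seen in 11.9% of thinned members against 29.3% of other barcodes.

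Genes spread over many day 16 members included Timp1 and Prg4. Prg4, the lubricating proteoglycan lubricin, stood at 35.5, 137, 717 and 183 CPM and was seen in 6.04%, 18.1%, 53.6% and 17.9% of thinned members against 8.30%, 6.76%, 4.69% and 13.0% of other barcodes. Of 8 complement genes 3 were higher at day 16 and 0 lower, or 2 without the cells with other markers. C4b stood at 71.2, 87.5, 182 and 188 CPM, and C3 at 404, 275, 718 and 1255 CPM. At day 16 C3 was seen in 52.4% of thinned members and in 54.9% of other barcodes, and the source of its transcripts in members was not tested. Of 16 collagen processing genes 5 were higher and 1 lower, or 4 and 1 without the cells that held other markers. Plod2, a lysyl hydroxylase, stood at 32.5, 54.8, 87.9 and 23.3 CPM, and Loxl3, a lysyl oxidase, at 23.2, 33.2, 65.2 and 20.2 CPM. Contractile genes were higher in 5 of 9, but in 4 of those 5 at least 50% of the UMIs lay in 5 cells. Prelp, a proteoglycan that anchors basement membrane to collagen, was seen in 32.5%, 31.9%, 53.6% and 35.3% of thinned members against 16.4%, 5.69%, 3.36% and 25.1% of other barcodes. Of the 671 genes called higher, 405 had at least 50% of their UMIs in 5 members. Krt15, a keratin of basal keratinocytes, had the lowest ratio at 106, 55.6, 0.686 and 0.814 CPM, and without the cells with other markers it stood at 11.7, 3.47, 0.799 and 0.215 CPM.

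Receptor and response genes of the type 2 cytokines IL-4 and IL-13 spanned a range of levels. Il4ra, the shared IL-4 and IL-13 receptor chain, stood at 35.3, 41.2, 70.4 and 29.5 CPM, with a log2 ratio of 0.99 at oxazolone day 16 over untreated skin (0.74 to 1.25). Il13ra1, the IL-13-binding chain, named after its values were seen, stood at 86.2, 86.7, 98.2 and 98.0 CPM. Il13ra2, the decoy receptor, stood at 10.0, 4.96, 15.8 and 1.14 CPM, with 93.5% of the day 16 UMIs in 5 cells. Ccl11, eotaxin-1, stood at 101, 70.3, 169 and 64.6 CPM, highest at day 16, and was seen in 22.0%, 10.6%, 33.3% and 17.4% of thinned members against 2.95%, 0.736%, 1.54% and 6.78% of other barcodes. Of 10 genes of that list 2 were higher and 0 lower at day 16 over untreated skin, beside 5.41% and 11.1% of all measured genes. The 2 were Arg1 and Chil1, which stood as described above. At day 10 over untreated skin 1 of 9 was higher and 2 lower, or 1 and 0 without the cells that held other markers, beside 5.12% and 5.69%. At day 16 over day 10, 4 of 9 were higher and 0 lower, beside 3.63% and 6.82%. In 2 of those 4 at least 50% of the UMIs lay in 5 members.

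With MC903 members held more Lox, Igfbp3 and Smoc2 than in untreated skin and fewer adventitial transcripts. Of 12766 measured genes 5.26% were called higher and 10.8% lower, with a median log2 ratio of -0.05. Lox, the enzyme that starts collagen and elastin crosslinking, stood at 200, 415, 455 and 1688 CPM, a log2 ratio of 3.08 over untreated skin (3.01 to 3.15). It was seen in 42.1%, 54.3%, 60.7% and 90.8% of thinned members and in 7.62%, 6.57%, 3.86% and 31.5% of other barcodes, highest with MC903 in both. Igfbp3, an IGF binding protein, stood at 259, 154, 188 and 1487 CPM and was seen in 31%, 33%, 17.9% and 51.1% of thinned members against 6.82%, 3.85%, 1.14% and 21.2% of other barcodes. Smoc2, a matricellular protein of the SPARC family, stood at 129, 184, 262 and 610 CPM. It was seen in 25.1%, 29.3%, 41.7% and 70.1% of thinned members against 25.8%, 16.8%, 3.63% and 26.8% of other barcodes. In untreated skin members thus did not stand above other barcodes. Cyp26b1, which degrades retinoic acid, stood at 405, 225, 60.1 and 1389 CPM. Adamts2, the procollagen N-proteinase, stood at 364, 368, 342 and 908 CPM. All 5 were highest with MC903, in many cells.

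Vitamin D response genes were seen in some MC903 members. Cyp24a1, the vitamin D-degrading enzyme induced through the vitamin D receptor, had 0 UMIs in the members of the other libraries and stood at 83.2 CPM with MC903, at least a log2 ratio of 8.06 above untreated skin when a floor of 3 UMIs is set for the untreated members. It was seen in 24 of 185 members (13.0%) and in 5.82% of other barcodes before thinning, and 73.4% of its UMIs lay in 5 members. Vdr, the receptor, stood at 17.9, 36.0, 32.3 and 33.2 CPM. Tnfsf11, the cytokine RANKL, stood at 0.417, 8.19, 5.15 and 52.1 CPM and was seen in 0%, 1.60%, 2.38% and 13.0% of thinned members against 3.32% of other barcodes with MC903. Kcne4, a potassium channel subunit, stood at 3.13, 14.0, 23.0 and 90.8 CPM, in 24.5% of thinned MC903 members against 6.17% of other barcodes. Hp, haptoglobin, stood at 0.313, 12.1, 7.89 and 117 CPM, with 72.4% of the MC903 UMIs in 5 members. Elovl4 was also among the highest ratios, at 87.6 CPM with MC903. Without cells holding other markers it was 3.23 CPM. Schwann cell markers summed to 95.4 CPM in MC903 members against 22.4 CPM in untreated ones.

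The lower genes with MC903 included adventitial genes and some collagens. Of 14 adventitial genes 8 were lower and 0 higher, and 11 were lower without the cells with other markers. Cd55, a complement-decay factor of fascial fibroblasts, stood at 182, 177, 216 and 35.2 CPM, and Anxa3 at 65.0, 23.7, 69.0 and 12.9 CPM. Of 18 collagens 4 were higher and 5 lower. Col14a1, which regulates fibril assembly, stood at 422, 351, 490 and 74.1 CPM and was seen in 53.3%, 43.6%, 59.5% and 17.9% of thinned members against 3.96%, 3.58%, 2.82% and 3.50% of other barcodes. Col15a1 stood at 141, 136, 114 and 36.6 CPM, while Col23a1, a transmembrane collagen, was higher at 61.3, 177, 126 and 259 CPM. Serpinh1, the collagen chaperone HSP47, stood at 696, 884, 1116 and 263 CPM. Of 17 proteases and inhibitors 5 were higher and 1 lower, or 5 and 2 without the cells that held other markers, with cathepsin K (Ctsk) at 531, 510, 223 and 1019 CPM. Complement genes were higher in 3 of 8, with C3 seen in 68.5% of thinned MC903 members against 30.5% of other barcodes, and in 47.3% against 6.34% in untreated skin. Of the 671 genes called higher with MC903, 216 had at least 50% of their UMIs in 5 members.

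**Figure D4:**
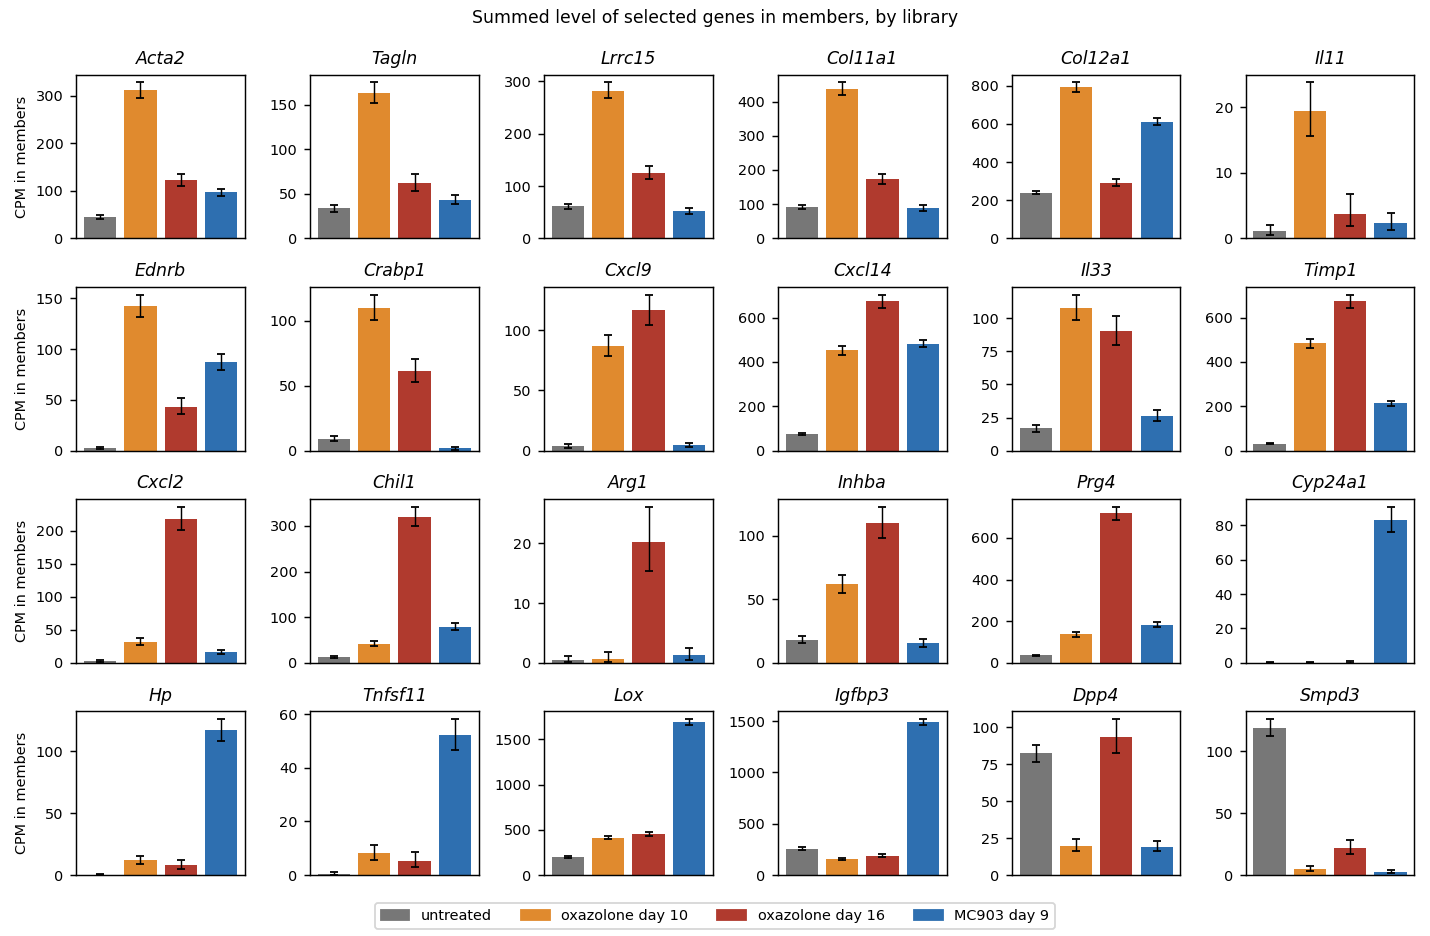
Summed level in members (CPM, linear axes from 0) of 24 genes in the 4 libraries, with exact 95% Poisson intervals for counting error. Acta2, Lrrc15 and Col11a1 are highest at oxazolone day 10, Timp1, Cxcl14 and Prg4 at oxazolone day 16, and Lox, Igfbp3 and Cyp24a1 with MC903, while Dpp4 is low at oxazolone day 10 and with MC903.

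Counts of periostin and collagen receptors and of TGF-beta genes past 2-fold were small, and no result about either list is drawn from them. Of 13 integrin and collagen receptor genes 1 was higher and 0 lower at oxazolone day 10, 1 and 2 at day 16, and 1 and 2 with MC903. Without the cells that held other markers these counts were 1 and 2 of 12, 1 and 2 of 12, and 1 and 3 of 13. Over all measured genes 5.12% were higher and 5.69% lower at day 10, 5.41% and 11.1% at day 16, and 5.26% and 10.8% with MC903. Itga1, an integrin chain that binds collagen, stood at 27.1, 95.9, 71.0 and 78.0 CPM, higher in each treated library than in untreated skin. Itgb3, a chain of the periostin-binding integrin alpha-v beta-3, stood at 60.4, 31.9, 33.3 and 12.4 CPM, and Itga8, another matrix-binding chain, at 64.1, 33.6, 21.3 and 79.1 CPM. Of 16 TGF-beta and activin genes 1 was higher and 1 lower at each oxazolone time, and 0 in either direction with MC903. Inhba, the activin A subunit, stood at 18.1, 61.9, 110 and 15.6 CPM, and Tgfb2 at 172, 64.7, 60.1 and 227 CPM. At day 16 Inhba was seen in 16.7% of thinned members and in 27.1% of other barcodes.

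Wnt and IL-6 family genes lay in both directions. Of 12 Wnt ligands and modulators 2 were higher and 2 lower at oxazolone day 10, 2 and 3 at day 16, and 1 and 2 with MC903. They became 2 and 1 of 10, 1 and 1 of 10, and 2 and 4 of 11 without the cells that held other markers. The shares over all measured genes were 5.12% and 5.69%, 5.41% and 11.1%, and 5.26% and 10.8%. No result about the list is drawn from counts this small. Wif1, a secreted Wnt inhibitor, stood at 86.6, 180, 209 and 41.7 CPM, and at 25.7, 133, 238 and 44.2 CPM without the cells with other markers, where the MC903 value lay above the untreated one. Dkk2, another Wnt antagonist, stood at 432, 182, 214 and 482 CPM. Among 10 oncostatin M and IL-6 family genes 1 was higher and 3 lower at day 10. Osmr, the oncostatin M receptor, stood at 97.1, 86.2, 111 and 183 CPM, and Socs3, the feedback inhibitor of that pathway, at 135, 48.3, 144 and 152 CPM.

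Between the oxazolone time points contractile and collagen transcripts were lower at day 16 and adventitial transcripts were higher. Of 11349 measured genes 3.63% were higher at day 16 and 6.82% lower, with a median log2 ratio of -0.10. Contractile genes were lower in 4 of 10 and collagens in 3 of 18, with 0 higher in either. Without the cells that held other markers 1 contractile gene was higher and 4 lower, and 2 collagens were lower. Col7a1 had a log2 ratio of -2.14 (-2.63 to -1.69), Col12a1 of -1.44 (-1.55 to -1.33) and Tagln of -1.39 (-1.64 to -1.16). Adventitial genes were higher in 6 of 14, with Dpp4 at 2.22 (1.88 to 2.58) and Pcsk6 at 1.85 (1.51 to 2.19). Immediate early genes were higher in 6 of 11, or 8 without the cells with other markers. Has1, a hyaluronan synthase, stood at 128, 20.05, 154 and 108 CPM, with a log2 ratio of 2.94 (2.61 to 3.28). Ccl7 had a log2 ratio of 3.11 (2.80 to 3.43). Nrg1, a ligand of ErbB receptors, was lower at day 16, at 42.1, 190, 20.9 and 20.3 CPM. Cells with at least 3 UMIs of Rspo2 and Hhip together, genes of the dermal papilla, were 1.11%, 5.58%, 18.0% and 2.16% of members, and their part in the day 16 values was not tested beyond leaving them out.

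MC903 and oxazolone day 16 share a software version. Of 11482 measured genes 12.9% were higher with MC903 and 9.88% lower, with a median log2 ratio of 0.14. These shares came to 1481 higher and 1134 lower genes, against 671 and 1374 for day 16 over untreated skin; with cells thinned to 5000 UMIs they were 960 and 502 against 447 and 1293, so the order of the totals turned. Chemokine genes were lower with MC903 in 8 of 15 and adventitial genes in 8 of 14, with 0 higher in either. Collagen processing was divided, with 3 of 16 higher and 6 lower: Lox had a log2 ratio of 1.89 (1.81 to 1.97), Serpinh1 of -2.08 (-2.17 to -2.00) and Plod2 of -1.92 (-2.22 to -1.62). IL-4 and IL-13 genes were lower in 5 of 10 and contractile genes in 3 of 9. Without the cells that held other markers the lower counts were 7 of 14 chemokine, 8 of 13 adventitial, 7 of 16 collagen processing, 6 of 10 IL-4 and IL-13 and 5 of 9 contractile genes. Sim2, a transcription factor, stood at 44.4, 25.4, 2.40 and 75.5 CPM. Fam180a stood at 89.5, 17.0, 2.06 and 53.1 CPM. Igfbp4 had a log2 ratio of -2.02 (-2.09 to -1.94), and Igfbp3 of 2.99 (2.86 to 3.11). The 3 ratios over untreated skin share that library, so their values are set side by side and no overlap is drawn from them.

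**Figure D5:**
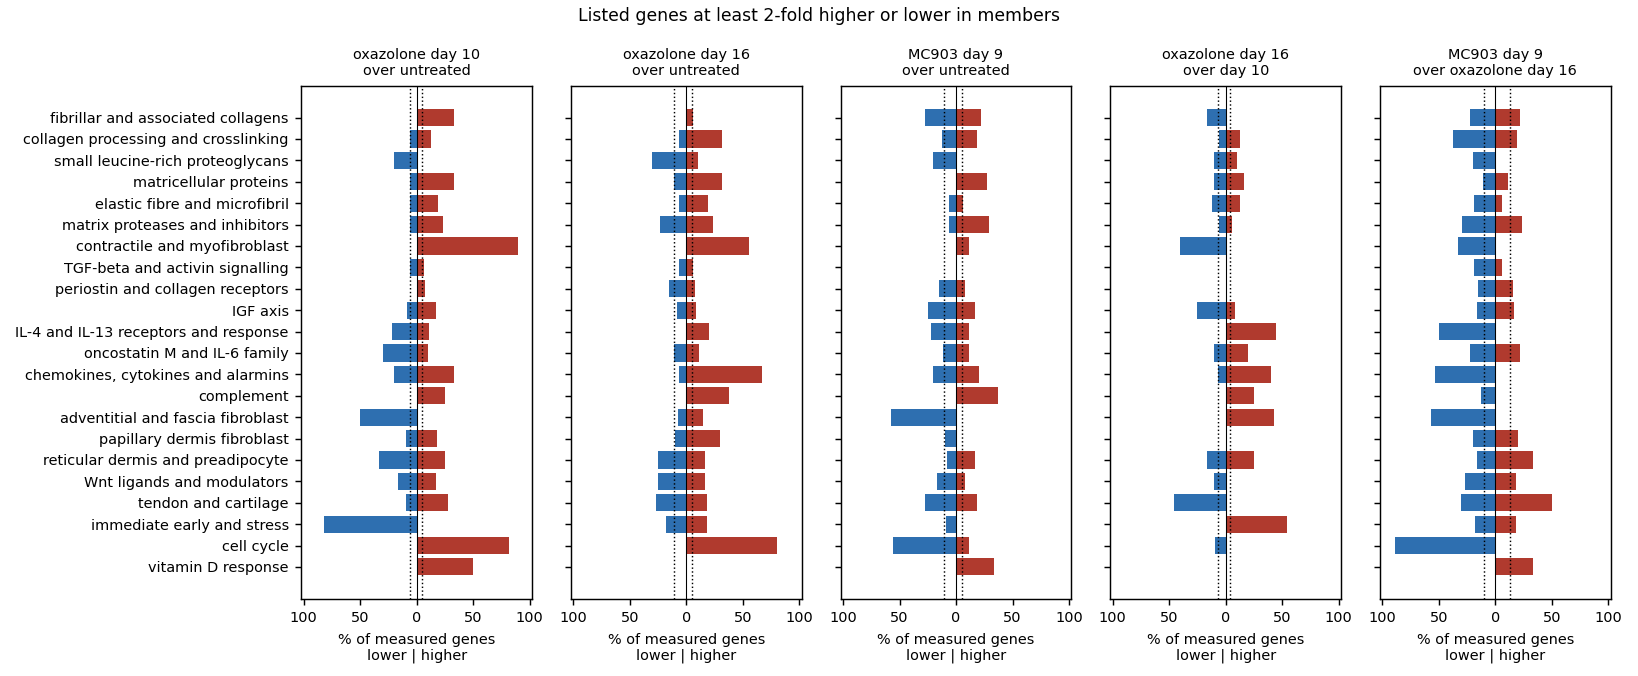
Percentage of measured genes of each list at least 2-fold higher (right, red) or lower (left, blue) in members, for 5 pairs of libraries. Dotted lines mark the same percentages over all measured genes, such as 5.12% higher and 5.69% lower at oxazolone day 10 over untreated; contractile genes reach furthest right and immediate early genes furthest left there.

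Cell cycle transcripts rested on few cells. Of 11 genes 9 were at least 2-fold higher at oxazolone day 10 over untreated skin and of 10 genes 8 at day 16. Over all measured genes 5.12% and 5.41% were higher. In each called cell cycle gene at least 50% of the UMIs lay in 5 members. The cell cycle counts were 9 of 10 at day 10 and 6 of 7 at day 16 without the cells that held other markers. Members with at least 5 cell cycle UMIs numbered 24, 21, 12 and 14, of which 20, 5, 1 and 8 held another cell type's markers. Without those cells Mki67, a marker of dividing cells, stood at 1.16, 37.9, 59.2 and 1.08 CPM. The oxazolone libraries thus differed more from the other 2 once those cells were left out. With MC903, 5 of 9 cell cycle genes were lower than in untreated skin, beside 10.8% of all measured genes. Without the cells that held other markers 0 of the 2 still measured were lower.

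Within untreated members, Postn-led and Cilp-led cells also differed in other genes. That library alone had at least 50 cells of both kinds, 327 Postn-led and 130 Cilp-led, with median depths of 14948 and 13138 UMIs. Of 11148 measured genes 6.12% were at least 2-fold higher in Postn-led cells and 1.98% lower. Smpd3 stood at 199.6 CPM in Postn-led and 12.5 CPM in Cilp-led cells, Sim2 at 46.1 and 1.64 CPM, and Chrm2, a muscarinic receptor, at 105 and 7.09 CPM. Collagens were higher in Postn-led cells in 5 of 18, with 0 lower. Matricellular genes went mostly the other way, with 3 of 18 higher and 7 lower. Thbs1, thrombospondin-1, a known activator of latent TGF-beta, stood at 107 and 384 CPM, Thbs4 at 26.5 and 125 CPM, and Smoc2 at 75.8 and 303 CPM. C1qtnf3, an adipokine of the C1q family, stood at 23.9 and 99.3 CPM. Thbs4, Smoc2 and Thbs1 were thus higher in Cilp-led cells, and Fabp5, which was also higher there, lay the other way without the cells with other markers (log2 ratio of 0.37).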

How the data were processed

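Transcripts of single skin cells were measured in 4 libraries, 1 per group. The deposited files hold raw UMI counts per gene and barcode (32285 genes), already called as cells by the authors; per the file headers this was done with Cell Ranger 7.2.0 or 8.0.0, while the submitters' processing notes give version 8.0 throughout, with mm10 as the genome. The use of intronic reads is not given in the sources used here. How reads shared by near-identical genes such as Hspa1a and Hspa1b were counted is not given in the sources used here.

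Counts were summed over the members of a library and scaled to 1000000 (CPM). Ratios were taken for genes with at least 30 UMIs in a pair, 14 rule genes excluded, and called at 2-fold, with exact conditional binomial intervals (95%); where 1 side had 0 UMIs, 3 took their place and the ratio is a bound. With 1 library per group no test was run. Shares of cells holding a gene were compared after thinning each cell to 5000 UMIs (fixed seeds), and other barcodes were counted at the same depth. For these shares the other barcodes were those that failed a step before the upper limits. For CPM sums they were all barcodes that were not members. Named genes are the rule genes, at most 4 per list and pair of libraries by ratio, and the 8 highest and 8 lowest ratios among genes with at least 200 UMIs (12 each within libraries, from 100 UMIs). Genes named only against the fibroblasts set aside by an upper limit, marker genes and others said to be chosen later fall outside that rule, and a few genes that it names are not reported here. The members, gene lists and markers were chosen with earlier results of these data known, and the marker and papilla gene limits after these values were seen. Doublets were kept; Scrublet, at 0.8% per 1000 barcodes, marked 53, 19, 6 and 12 members (untreated, oxazolone day 10, day 16, MC903), and leaving them out was an alternative. Other alternatives were the Postn and Cilp limit, the mitochondrial limit, TMM and median-of-ratios scaling (edgeR 4.0.16, DESeq2 1.42.0, R 4.3.3), the UMI minimum, thinning, a correction for free RNA, and keeping Cxcl5 and Saa3 cells. Scripts used Python 3.11.15, scipy 1.17.1 and scanpy 1.11.5, and the ratio step was tested on simulated data.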

Additional observations from a re-analysis of the deposited data

Results flagged for a closer look

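Ccl7 lay below untreated skin at oxazolone day 10 (log2 ratio -1.96) and above it at day 16 (1.15), so the 2 time points stood on opposite sides of the same control library. Its levels were 84.8, 21.8 and 188 CPM in untreated skin, at day 10 and at day 16. The difference between the time points was not tested, as each is 1 library. At day 16, 54.8% of its UMIs lay in 5 members and other barcodes held it in 23.2% of thinned cells; the part of either in the result was not tested.

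Col2a1, the chief collagen of cartilage, lay above untreated skin at oxazolone day 10 (log2 ratio 2.56) and at 0 UMIs at day 16, where the ratio of -3.23 is a bound set by a floor of 3 UMIs. Its levels were 9.69, 57.3 and 0 CPM, and 94.7% of the day 10 UMIs lay in 5 members. Without the cells holding another cell type's markers it stood at 1.16, 3.97 and 0 CPM. This difference, too, was not tested.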

How the results depend on the processing

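Of 168 alternative values of 18 main shares and counts 117 stayed within the limits set (1.5-fold for a count, the counting interval for a share) and 51 moved. The share of gated fibroblasts was 65.1% in untreated skin at a limit of 3 Postn and Cilp UMIs, and 50.7%, 43.9%, 48.7% and 39.9% at 10 (untreated, oxazolone day 10, day 16, MC903). Thinning gave 48.8%, 38.9%, 37.4% and 27.1%. Keeping Cxcl5 and Saa3 cells gave 63.3% at day 10 and 69.2% at day 16. Leaving out cells with other markers gave 69.4%, 65.1% and 70.3% in the first 3 libraries. Thinned cells gave 381 higher genes at day 10, 447 at day 16 and 444 with MC903 over untreated skin. They gave 270 higher and 419 lower at day 16 over day 10, 960 and 502 for MC903 over day 16, 16 and 96 over fibroblasts with fewer Postn and Cilp UMIs, and 442 higher in Postn-led cells. At a minimum of 100 UMIs the higher and lower counts were 324 and 411 at day 10, 346 and 734 at day 16, 401 and 736 with MC903, 218 and 298 at day 16 over day 10, and 960 and 597 for MC903 over day 16. It gave 144 lower over the low fibroblasts, and 258 and 95 for Postn-led cells. At 1 UMI they were 4412 and 1427 at day 10, 4747 higher at day 16, 3389 and 2444 with MC903, 3017 and 1774 at day 16 over day 10, 2295 and 5220 for MC903 over day 16, and 77 and 455 over the low fibroblasts. A limit of 10 Postn and Cilp UMIs gave 23 higher there, and leaving out cells with other markers 12 higher and 45 lower. Apart from the settings themselves, which test fewer or more genes or cells, the cause was not tested.

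Of 5580 alternative log2 ratios of 539 named results 1160 moved out of their interval (within libraries, by at least 0.5) and 19 reversed. At day 10 over untreated skin these were Rspo3 (-0.047 at a limit of 10), Mmp3 (-0.10 without Scrublet calls), Il6 (0.83) and Il13ra2 (2.71), both with Cxcl5 and Saa3 cells kept. At day 16 they were Cytl1 (0.28 without Scrublet calls), Spp1 (-2.90 after the free RNA correction), Wnt4 (0.24 with Cxcl5 and Saa3 cells kept), and Lef1 (-0.83) and Rspo3 (-0.72) without cells holding Rspo2 and Hhip. With MC903 they were Mki67 (1.90), Cish (0.00366), Wif1 (0.61) and Thbs4 (-0.61) without Scrublet calls, Crabp1 (1.67) and Cdk1 (1.20) with Cxcl5 and Saa3 cells kept, and Cytl1 (-0.76) and Wif1 (0.78) without cells holding other markers. For MC903 over day 16 it was Lef1 (0.85 without cells holding Rspo2 and Hhip), and for Postn-led over Cilp-led cells Fabp5 (0.37) without cells holding other markers.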
